A study of Mus musculus with 4 samples.

Results

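Endothelial cells line the vessels of the liver, and most of them form the sinusoids, capillaries with open pores through which blood plasma reaches the hepatocytes. This group of 35 genes was listed by symbol as markers of sinusoidal and general vascular endothelium. No measured value entered the list itself, but the group was chosen with earlier results of these data known. Of these 35 symbols among 22849 in the deposited table of liver RNA, 33 had a row of their own, and Lyve1 and Sox18 stood only in rows that name several genes at once. All 33 passed the filter on low values, a mean of at least 1 FPKM (fragments mapped to a transcript, scaled by its length and the library's size) over the libraries.

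Liver was taken from males of the inbred mouse strain C57BL/6 after 12 weeks on a high fat diet with 60% fat. The vehicle group ate this diet alone and the other group ate it with UAB126, a compound known here only by its code, at 1.2 g per kg of diet. There were 2 libraries per group, called vehicle replicate 1 and 2 and UAB126 replicate 1 and 2. No age was used here. The labels only number the libraries and do not say whether each is another mouse, so the p-values rest on a spread between samples that may be technical. Whole liver was used, so more endothelial cells and more RNA of a gene per endothelial cell cannot be told apart.

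Sinusoidal endothelium takes up waste molecules from the blood through scavenger receptors such as stabilin-1 and stabilin-2. It also sends signals to hepatocytes, among them the bone morphogenetic proteins BMP2 and BMP6, which control hepcidin and so iron balance. Like other endothelium it depends on vascular endothelial growth factor (VEGF) receptors, on the Tie receptors of the angiopoietins and on junction proteins such as VE-cadherin, and the ETS factor ERG and the SOXF factors are regulators of endothelial genes.

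Promoters are shown for genes of the group that were higher in both UAB126 libraries than in both vehicle libraries, that had a single RefSeq start and whose window met no annotated exon: Stab1, Eng and Aqp1. Each sequence is the 250 bases before the RefSeq start (GRCm38.p6), 5′ to 3′ on the strand of the gene, with the letters AGGAAG or their reverse complement CTTCCT, the core of many ETS factor sites, in capitals.
Stab1, chr14:31168642-31168891, minus strand: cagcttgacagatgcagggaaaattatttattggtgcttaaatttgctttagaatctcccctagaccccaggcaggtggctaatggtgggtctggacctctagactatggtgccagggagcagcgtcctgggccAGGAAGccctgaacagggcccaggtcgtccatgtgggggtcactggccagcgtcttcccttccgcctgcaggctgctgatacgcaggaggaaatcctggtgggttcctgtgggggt
Eng, chr2:32646345-32646594, plus strand: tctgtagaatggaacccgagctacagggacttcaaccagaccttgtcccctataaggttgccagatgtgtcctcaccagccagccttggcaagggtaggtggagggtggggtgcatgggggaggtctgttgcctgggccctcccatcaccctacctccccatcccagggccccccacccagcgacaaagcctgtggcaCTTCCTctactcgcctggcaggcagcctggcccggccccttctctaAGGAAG
Aqp1, chr6:55336049-55336298, plus strand: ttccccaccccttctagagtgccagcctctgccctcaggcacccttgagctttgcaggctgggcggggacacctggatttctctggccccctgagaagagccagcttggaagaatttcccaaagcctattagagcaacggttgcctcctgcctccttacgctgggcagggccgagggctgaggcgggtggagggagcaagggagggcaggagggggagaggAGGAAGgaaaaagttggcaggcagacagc
RefSeq promoters were at hand for 21 of the 35 genes, in 25 windows. AGGAAG stood on either strand in 15 of the 25 windows, from 14 of the 21 genes. Of all 32851 promoter windows of this length, 29.5% held it. AGATAA, a core of GATA factor sites, was in windows of 1 of the 21 genes and in 9.99% of all windows, and ACAAAG, a core of SOX sites, in windows of 3 genes and in 16.5% of all. A match describes the letters and is not a binding site, and genes with several starts had several chances of a match.

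All 33 genes were above 0 in all 4 libraries. FPKM is scaled by transcript length, so levels can be set side by side between genes. Besides Nrp1, whose rows are described below, the highest mean level was that of Clec4g, a lectin of sinusoidal cells (57.4 FPKM over the libraries). It was followed by Egfl7, a secreted endothelial protein (39.2 FPKM), the water channel gene Aqp1 (29.2 FPKM) and Dnase1l3, a secreted DNase (27.2 FPKM). The lowest were Vwf, von Willebrand factor of larger vessels (1.17 FPKM), the transcription factor gene Erg (1.33 FPKM) and Cd34 (1.40 FPKM). The mean level was at least 20 FPKM for 7 genes, from 10 to 20 for 7, from 5 to 10 for 8, from 2 to 5 for 7 and under 2 for 4. Nrp1, Flt4 and Oit3 were placed by sums that rest wholly or in part on rows of the opposite strand, described below. The own-strand row had means of 2.71 FPKM in vehicle and 5.66 FPKM with UAB126 for Flt4. For Oit3 these were 6.90 and 11.7 FPKM.

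**Figure D1:**
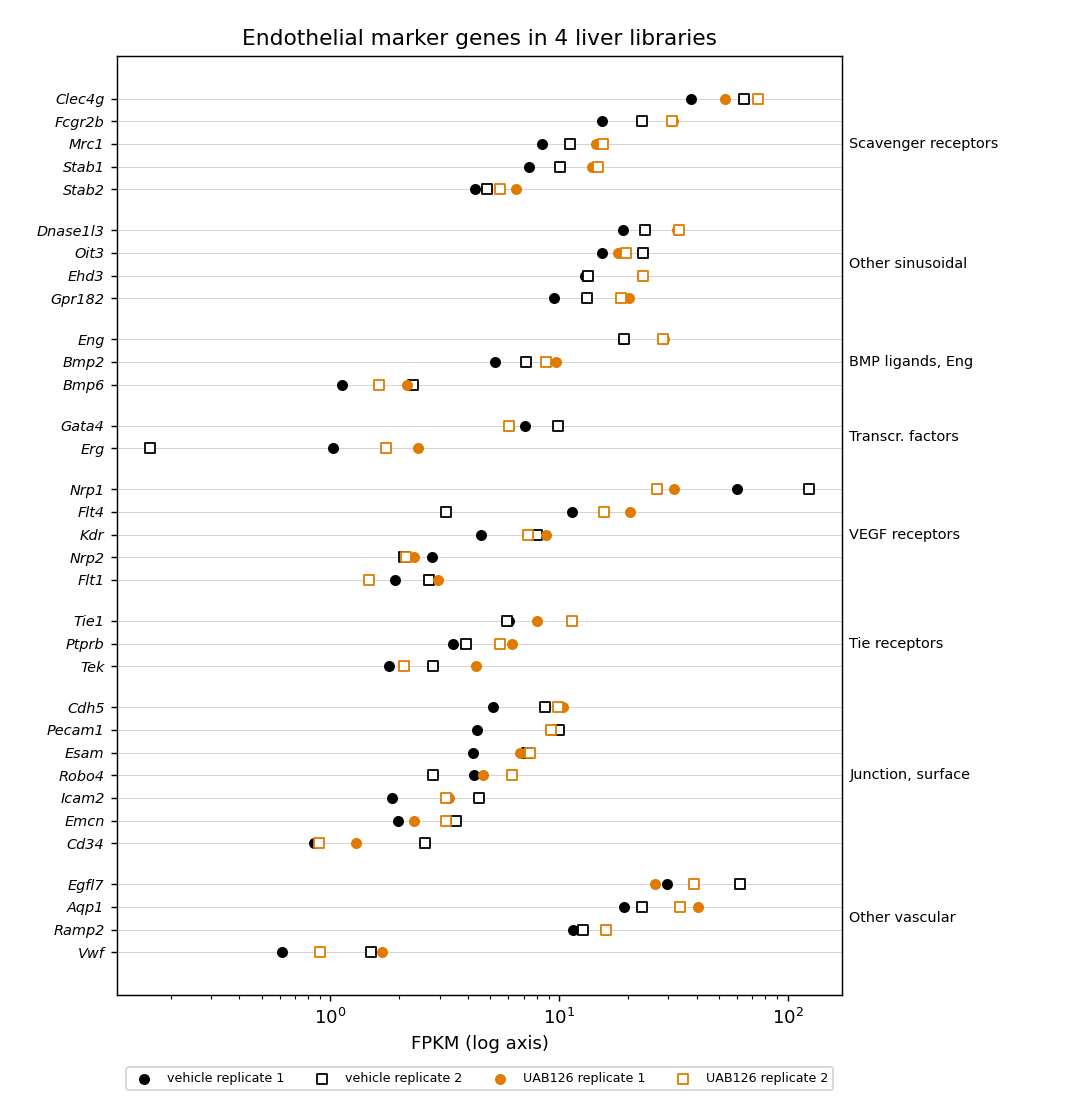
FPKM (log axis) of the 33 endothelial genes with a row of their own, grouped by role, with a point for each library (circles, replicate 1; squares, replicate 2; black, vehicle; orange, UAB126). Vehicle replicate 1 is the lowest point in 24 of the 33 genes.

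Livers with UAB126 had higher levels of many endothelial genes, but no single gene passed the test. The mean of log2(FPKM + 1) was higher with UAB126 in 26 of 33 genes, against 47.4% of the 10786 symbols tested. The UAB126 libraries were both above the vehicle libraries in 17 genes, against 22.7% of the symbols, and below both in 2 genes, against 26.9%. Of the 33 genes, 0 passed an adjusted p under 0.05 (limma on log2(FPKM + 1), Benjamini-Hochberg over all symbols), where 15 symbols or 0.139% of all passed. At an unadjusted p under 0.05, 12 genes were higher with UAB126, against 5.03% of all symbols, and 1 was lower, against 8.38%. The lower gene was Nrp1, whose rows are described below. The median difference of the 33 genes was 0.37 on the log2(FPKM + 1) scale, beside -0.03 over all symbols tested.

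**Figure D2:**
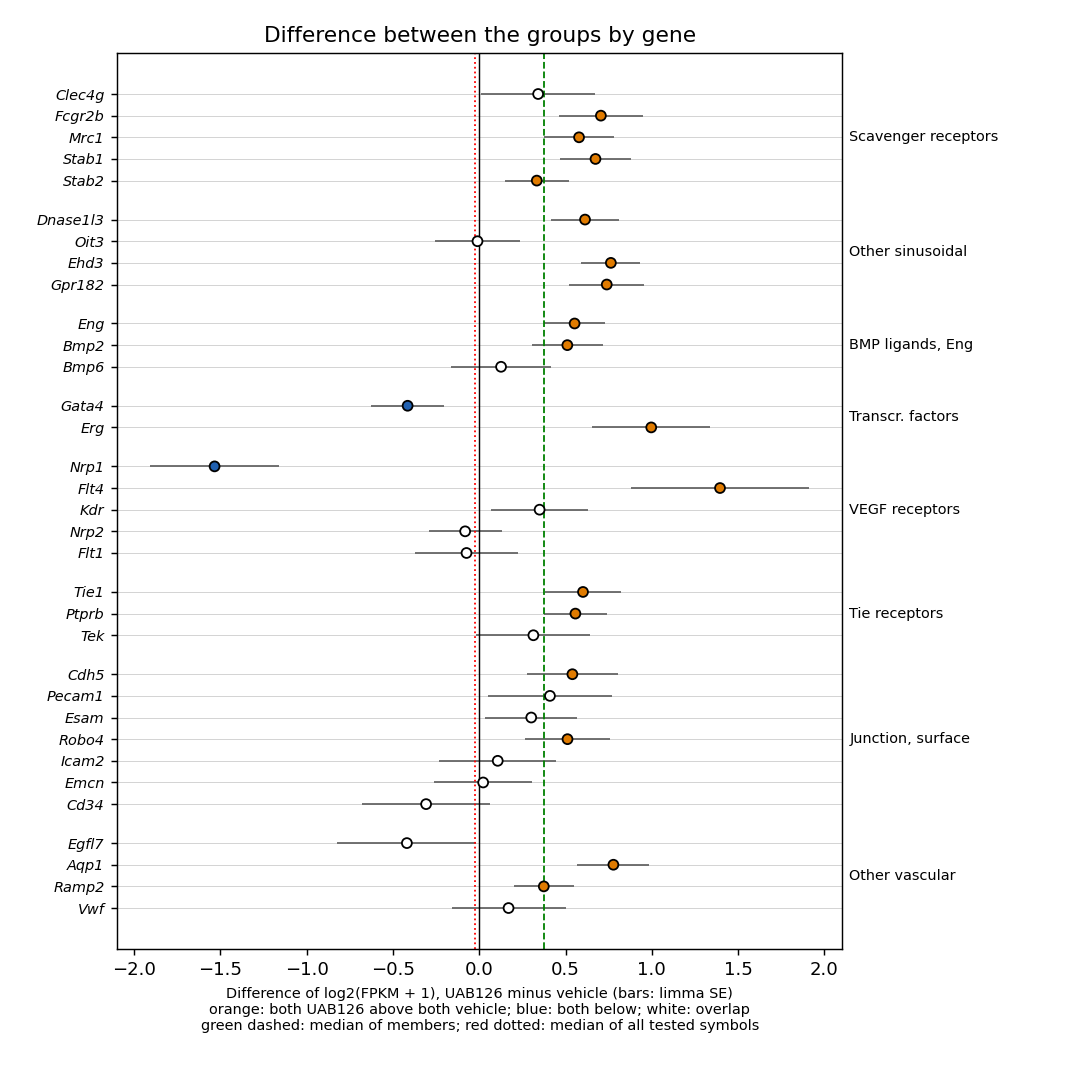
Difference of log2(FPKM + 1) between UAB126 and vehicle for each gene, with limma's moderated SE as bars. In 17 genes (orange) both UAB126 libraries lay above both vehicle libraries and in 2 (blue) below both; the green dashed line is the median of the genes, 0.37, and the red dotted line that of all symbols, -0.03.

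The vehicle libraries also stood apart from each other in these genes. Vehicle replicate 2 was above vehicle replicate 1 in 28 of 33 genes, with a median of 0.43 on the log2 scale, while over all symbols it was above in 53.4%, with a median of 0.04. Vehicle replicate 1 was the lowest of the 4 libraries in 24 genes, and in 18.8% of all symbols. Between the UAB126 libraries, replicate 2 was above replicate 1 in 14 genes, with a median difference of -0.04. Among all symbols it was above in 56.2%, with a median of 0.05. Without regard to sign, the median gap was 0.15 between the UAB126 libraries and 0.46 between the vehicle libraries. Over all symbols these gaps were 0.23 and 0.28. Against vehicle replicate 1 alone the median difference of the UAB126 mean was 0.59, and against vehicle replicate 2 alone it was 0.21. For all symbols tested these medians were -0.02 and -0.04. The mean of the UAB126 libraries was above vehicle replicate 1 in 30 genes and above vehicle replicate 2 in 20. It was above vehicle replicate 1 but below vehicle replicate 2 in 11 genes, and these include the junction genes Pecam1, Esam and Icam2. The share of all symbols was not counted for this mean. Taken singly, UAB126 replicates 1 and 2 were above vehicle replicate 1 in 29 and 29 genes, against 45.4% and 51.6% of all symbols. They were above vehicle replicate 2 in 22 and 20 genes, against 45.3% and 48.0%. In 17 of the 33 genes the gap between the vehicle libraries was larger than the difference of the groups, a share of 51.5%, beside 51.2% of all symbols tested.

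**Figure D3:**
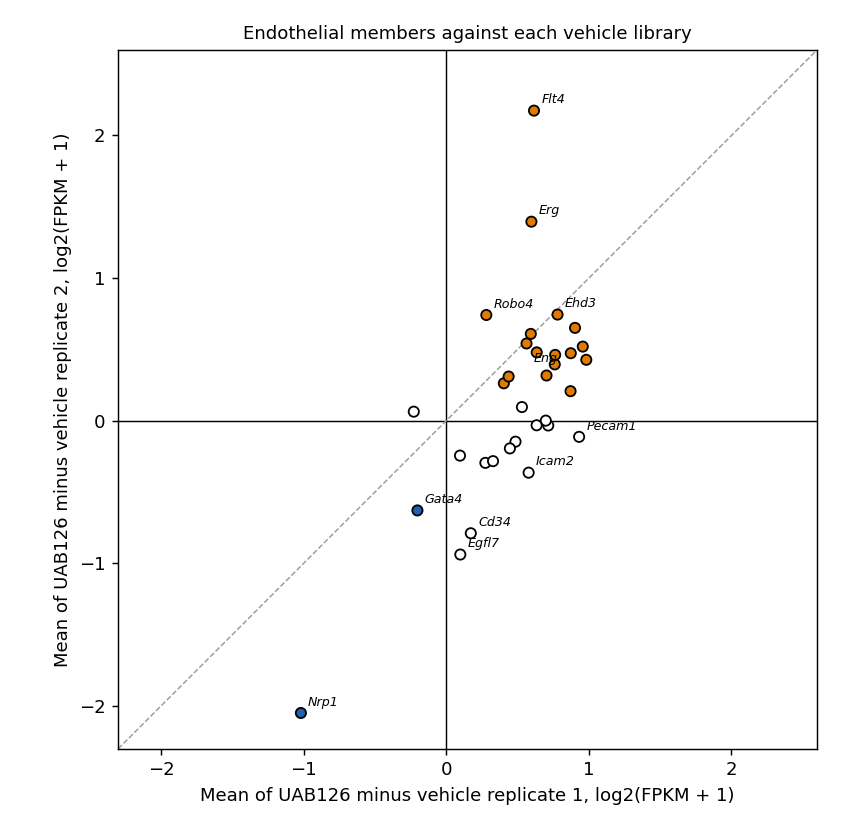
Mean of the UAB126 libraries minus vehicle replicate 1 (horizontal) and minus vehicle replicate 2 (vertical) on the log2(FPKM + 1) scale, with a point per gene coloured as in the plot of differences by gene (orange, both UAB126 libraries above both vehicle libraries; blue, below both; white, overlap) and a dashed line of equal difference. The 11 genes in the lower right are above vehicle replicate 1 and below vehicle replicate 2; Flt4 and Erg lie far above the line.

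Markers of other liver cells also differed between the same libraries. The 12 Kupffer cell and macrophage markers summed to 133.1 and 394.5 FPKM in vehicle replicates 1 and 2 and to 289.1 and 365.4 FPKM in UAB126 replicates 1 and 2, with none at 0. Their median deviation from the gene means was -0.90 in vehicle replicate 1. All 12 had a higher mean of log2(FPKM + 1) with UAB126, against 47.4% of all symbols, with a median difference of 0.52. The mean FPKM of C1qb was lower, however (ratio 0.973). Both UAB126 libraries were above those of vehicle in 5 of the 12, against 22.7% of all symbols, but against vehicle replicate 2 alone the median was 0.01. Stellate cell and fibroblast markers summed to 152.0 and 188.2 FPKM without UAB126, against 177.9 and 167.5 FPKM with it (11 tested, median 0.14). The 12 hepatocyte markers summed to 78524 and 110433 FPKM without UAB126, against 47633 and 64132 FPKM with it, with a median difference of -0.45 and 6 below and 2 above in both UAB126 libraries, against 26.9% and 22.7% of all symbols. The FPKM of all rows summed to 5698921 and 11756079 in vehicle replicates 1 and 2. In UAB126 replicates 1 and 2 they summed to 2464336 and 2891356. The summed FPKM of a list, here and below, are therefore not shares of an equal total. The part of these shifts in the endothelial values was not tested.

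**Figure D4:**
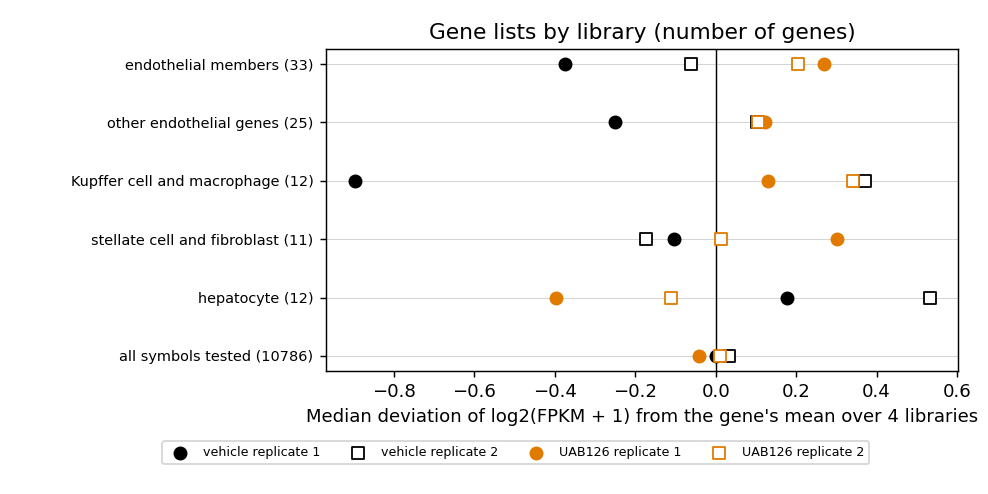
Median deviation of log2(FPKM + 1) from each gene's mean over the libraries, for the endothelial genes and other lists, with a point per library (symbols as in the plot of levels; number of genes in parentheses). The endothelial genes lie at -0.37 and -0.06 in the vehicle libraries and at 0.27 and 0.21 in the UAB126 libraries, and the Kupffer cell list at -0.90 in vehicle replicate 1.

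The scavenger and clearance receptors were higher on average with UAB126 in each of 5 readable genes, against 47.4% of all symbols. In 4 of them both UAB126 libraries lay above both vehicle libraries, against 22.7% of all symbols. The median difference of the 5 genes was 0.58 on the log2 scale. Stab1, for stabilin-1 (chromosome 14, 31139013 to 31168641, mm10), was at 7.41 and 10.1 FPKM without UAB126, against 14.0 and 14.8 FPKM with it. Its log2 difference was 0.67 ± 0.21 (limma's moderated SE, 2 libraries per group; limma adjusted p = 0.306), and this SE is meant by every ± below. Stab2, for stabilin-2, a receptor for hyaluronan (chromosome 10, 86841198 to 87008025), was at 4.28 and 4.82 FPKM against 6.50 and 5.50 FPKM. In both stabilin genes the UAB126 libraries lay above the vehicle libraries, with the narrower gap in Stab2 (0.33 ± 0.18).

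Mrc1, for the mannose receptor (chromosome 2, 14229392 to 14332057), was at 8.45 and 11.2 FPKM without UAB126, against 14.5 and 15.6 FPKM with it, a difference of 0.58 ± 0.20 (limma adjusted p = 0.337). Fcgr2b, for an Fc receptor that clears immune complexes (chromosome 1, 170958617 to 170976547), was at 15.4 and 23.0 FPKM against 31.4 and 31.2 FPKM, a difference of 0.70 ± 0.24. Both genes are also expressed by macrophages, and Fcgr2b by B cells, whose 7 markers in the table summed to 2.58 and 3.30 FPKM without UAB126, against 3.16 and 7.27 FPKM with it. Clec4g was at 37.9 and 64.4 FPKM against 53.3 and 74.2 FPKM. Its groups overlapped, each replicate 1 being lower than its replicate 2. Lyve1, a hyaluronan receptor, could not be read: its row also names 1700012D14Rik and Eif4g2, a widely expressed translation factor, and stood at 53.0 and 38.0 FPKM against 91.9 and 60.3 FPKM.

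Of the other sinusoidal markers, 3 of 4 had each UAB126 library above the vehicle libraries, against 22.7% of all symbols. Ehd3, for a protein of endocytic membranes (chromosome 17, 73804134 to 73832094), was at 13.0 and 13.4 FPKM without UAB126, against 23.0 and 23.3 FPKM with it. The libraries of each group nearly coincided, and at 0.76 ± 0.17 it had the smallest adjusted p of the 33 genes (limma adjusted p = 0.234). Over all alternatives its difference ran from 0.73 to 0.84. Gpr182, for an endothelial receptor that binds chemokines (chromosome 10, 127747276 to 127751732), was at 9.50 and 13.2 FPKM against 20.2 and 18.6 FPKM. Dnase1l3 (chromosome 14, 7964533 to 7994573) was at 19.0 and 23.7 FPKM against 32.7 and 33.3 FPKM. Their ratios of mean FPKM were 1.71 and 1.55.

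Oit3, a liver-specific gene of sinusoidal cells on the minus strand of chromosome 10 (59422958 to 59441778), had rows with opposite directions at the same deposited locus. The rows of each chromosome stand in blocks, each sorted by position. Of the symbols with a single row and position, 99.95% of the 10108 in the first block were on the plus strand of the annotation and 99.96% of the 10055 in the second on the minus strand, so the block of a row was read as its strand. The Oit3 row in the block of its own strand was at 5.06 and 8.74 FPKM without UAB126, against 12.1 and 11.2 FPKM with it. The other row, in the block of the opposite strand, was at 10.3 and 14.6 FPKM against 5.95 and 8.37 FPKM. The sum of the rows therefore showed a difference of -0.01 ± 0.25, and the row of its own strand alone one of 0.72 ± 0.27 (limma adjusted p = 0.342).

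Of the VEGF receptors and neuropilins, Flt4 and Nrp1 stood apart between the groups, and in both genes the value depended on such rows. Flt4, for the receptor of VEGF-C (chromosome 11, 49609263 to 49652739, plus strand), was summed to 11.4 and 3.21 FPKM without UAB126, against 20.5 and 15.7 FPKM with it (1.39 ± 0.52). Its row on its own strand was at 2.76 and 2.66 FPKM against 5.95 and 5.37 FPKM, where the libraries of each group lay close together. That row alone had a ratio of mean FPKM of 2.09 and a log2 difference of 0.84 ± 0.18 (limma adjusted p = 0.211). The row on the opposite strand was at 8.63 and 0.547 FPKM against 14.6 and 10.4 FPKM, and it held most of the spread in vehicle. Without vehicle replicate 1 the summed difference was 2.17 (limma adjusted p = 0.00822), so that the call depends on that library.

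Nrp1, for a co-receptor of VEGF and semaphorins (chromosome 8, 128358604 to 128503363, plus strand), had the lowest difference of the 33 genes. Its 2 rows were at 25.4 and 39.2 FPKM and at 34.997 and 85.1 FPKM in vehicle, against 11.4 and 11.3 FPKM and 20.4 and 15.7 FPKM with UAB126. Their sum gave a difference of -1.53 ± 0.37 (limma adjusted p = 0.257), and of -2.05 without vehicle replicate 1 (limma adjusted p = 0.0184). Both of these rows stood in the block of the opposite strand. The row in the block of its own strand also names Mir1903 and was at 25.2 and 31.3 FPKM without UAB126, against 29.4 and 23.1 FPKM with it, with groups that overlapped (-0.10 ± 0.22). What the opposite-strand rows represent was not tested.

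**Figure D5:**
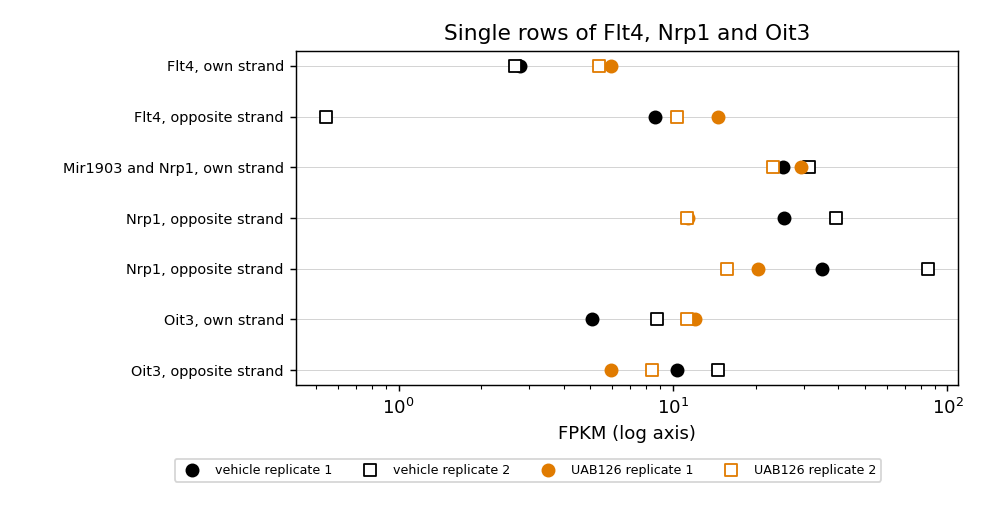
FPKM (log axis) of the single rows of Flt4, Nrp1 and Oit3, with a point per library (symbols as in the plot of levels), labelled by whether the row stands in the block of the gene's own or of the opposite strand. For Oit3 the UAB126 points lie at 12.1 and 11.2 FPKM on its own strand, above the vehicle points, and at 5.95 and 8.37 FPKM on the opposite strand, below them.

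The remaining receptors of this family overlapped between the groups. Kdr, for the main VEGF receptor VEGFR2, was at 4.55 and 8.01 FPKM without UAB126, against 8.76 and 7.32 FPKM with it, so only vehicle replicate 1 stood apart. Flt1, for VEGFR1, was at 1.92 and 2.70 FPKM against 2.94 and 1.47 FPKM. Nrp2 was at 2.78 and 2.09 FPKM against 2.32 and 2.14 FPKM. The directions of Flt1 and Nrp2 turned when a single library was left out.

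The Tie receptor genes and their phosphatase were all higher on average with UAB126 (median difference 0.56), as were 47.4% of all symbols. Tie1, for an orphan receptor that pairs with TIE2 (chromosome 4, 118471191 to 118490061), was at 6.01 and 5.94 FPKM without UAB126, against 7.99 and 11.4 FPKM with it, a difference of 0.60 ± 0.22 (limma adjusted p = 0.346). Ptprb, for VE-PTP, which removes phosphate from TIE2 (chromosome 10, 116275523 to 116389535), was at 3.43 and 3.93 FPKM against 6.24 and 5.54 FPKM (0.56 ± 0.18). Tek, which encodes TIE2 itself, the angiopoietin receptor, was at 1.81 and 2.80 FPKM against 4.32 and 2.10 FPKM. Here the groups overlapped, since UAB126 replicate 2 lay below vehicle replicate 2.

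Among the BMP genes, both UAB126 libraries lay above both vehicle libraries in Eng and Bmp2, as in 22.7% of all symbols. The groups overlapped in Bmp6. Eng, for endoglin, the co-receptor of BMP9 (chromosome 2, 32646595 to 32682669), was at 19.0 and 19.3 FPKM without UAB126, against 28.7 and 28.5 FPKM with it. Replicates agreed closely in both groups, and the difference was 0.55 ± 0.18 (limma adjusted p = 0.313). Bmp2 was at 5.27 and 7.19 FPKM against 9.71 and 8.73 FPKM (0.51 ± 0.21). Bmp6, the main endothelial signal for hepcidin, was at 1.12 and 2.30 FPKM against 2.17 and 1.63 FPKM, within the spread of vehicle.

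Of the transcription factor genes, Erg was higher in both UAB126 libraries and Gata4 lower in both. Erg (chromosome 16, 95359169 to 95586593) was at 1.02 and 0.163 FPKM without UAB126, against 2.41 and 1.74 FPKM with it, a difference of 1.00 ± 0.34 (limma adjusted p = 0.327). Without vehicle replicate 1 the difference was 1.40 (limma adjusted p = 0.0360). The low vehicle replicate 2 value comes from the shallowest library, whose relative depth was 0.404 of UAB126 replicate 1. Gata4, which specifies sinusoidal identity (chromosome 14, 63198922 to 63271692), was at 7.09 and 9.88 FPKM against 6.02 and 6.05 FPKM. Both UAB126 libraries lay below both vehicle libraries (-0.42 ± 0.21), as in Nrp1 and in no other gene of the group. Gata4 is also transcribed in hepatocytes, whose 12 markers had a median difference of -0.45. Of these, 6 lay below and 2 above in both UAB126 libraries, against 26.9% and 22.7% of all symbols. The part of hepatocytes in the Gata4 value was not tested. The row that holds Sox18 also names Rgs19 and was at 3.34 and 9.50 FPKM against 6.23 and 5.39 FPKM.

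Of the 7 junction and surface genes, 2 had both UAB126 libraries above and 0 below, against 22.7% and 26.9% of all symbols. Against vehicle replicate 2 alone their median was -0.11. Cdh5, for VE-cadherin, which holds endothelial cells together, was at 5.12 and 8.69 FPKM without UAB126, against 10.5 and 9.94 FPKM with it. Robo4, for a guidance receptor that stabilises vessels, was at 4.24 and 2.81 FPKM against 4.64 and 6.20 FPKM. Pecam1, for the adhesion molecule CD31, was at 4.36 and 10.05 FPKM against 9.17 and 9.27 FPKM, so that vehicle replicate 2 lay above the UAB126 libraries. Esam, Icam2 and Emcn, further adhesion and surface proteins, had the same order of vehicle libraries and overlapping groups, with differences of 0.30 ± 0.27, 0.11 ± 0.34 and 0.02 ± 0.28. Cd34 was at 0.844 and 2.59 FPKM against 1.29 and 0.887 FPKM.

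Of the other vascular genes, Aqp1 and Ramp2 had both UAB126 libraries above both vehicle libraries, as in 22.7% of all symbols. Aqp1 (chromosome 6, 55336432 to 55348555) was at 19.3 and 23.2 FPKM without UAB126, against 40.5 and 33.7 FPKM with it, a difference of 0.78 ± 0.21 (limma adjusted p = 0.270). Ramp2, for the partner protein of the adrenomedullin receptor, was at 11.6 and 12.7 FPKM against 16.0 and 16.0 FPKM (0.37 ± 0.17). Egfl7 was at 29.7 and 62.0 FPKM against 26.2 and 38.8 FPKM, with a direction that turned without vehicle replicate 2. Vwf was at 0.612 and 1.499 FPKM against 1.69 and 0.896 FPKM.

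Endothelial genes outside the group, from a list of 36 symbols, had a lower median difference, and whether it differs from that of the group was not tested. Of 25 tested, 9 had both UAB126 libraries above those of vehicle and 2 had both below, against 22.7% and 26.9% of all symbols, with a median of 0.19, which was -0.03 against vehicle replicate 2 alone. None passed (limma, adjusted p under 0.05), and at an unadjusted p under 0.05 there were 3 higher and 1 lower, against 5.03% and 8.38% of all symbols. F8, for coagulation factor VIII, which sinusoidal cells make, was at 3.01 and 3.14 FPKM without UAB126, against 5.36 and 5.84 FPKM with it (0.69 ± 0.18; limma adjusted p = 0.267). Calcrl, for the receptor that RAMP2 joins, was at 1.80 and 1.20 FPKM against 3.31 and 3.04 FPKM, and Vcam1, for an adhesion molecule of leukocytes, at 1.82 and 4.43 FPKM against 6.54 and 6.87 FPKM. Cav1, for caveolin-1, was lower, at 6.10 and 7.64 FPKM against 4.60 and 3.23 FPKM. The most abundant genes of the list, Plvap and Cd36, had differences of -0.15 ± 0.28 and 0.06 ± 0.19.

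Among 10 endothelial transcription regulators tested, 3 were above and 1 below in both UAB126 libraries, against 22.7% and 26.9% of all symbols, and 0 passed (limma, adjusted p under 0.05). Maf, which takes part in sinusoidal specification and is also expressed in macrophages, was at 10.2 and 11.9 FPKM without UAB126, against 24.8 and 18.0 FPKM with it (0.88 ± 0.23). Hhex, expressed in hepatocytes as well as endothelium, was at 98.4 and 101.8 FPKM against 51.6 and 45.6 FPKM (-1.03 ± 0.20, limma adjusted p = 0.207). Nr2f2, for a venous regulator, was at 23.1 and 19.2 FPKM against 23.0 and 15.7 FPKM.

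Of the VEGF and angiopoietin ligands and partners, 8 passed the filter on low values, 3 of them above in both UAB126 libraries and 0 below, against 22.7% and 26.9% of all symbols. Vegfa, the main ligand of KDR, was at 73.0 and 48.9 FPKM without UAB126, against 65.7 and 60.3 FPKM with it, a difference of 0.07 ± 0.26. Sema3f, a semaphorin that binds neuropilins, was at 1.45 and 1.42 FPKM against 4.07 and 3.18 FPKM (0.92 ± 0.21, limma adjusted p = 0.236). Angptl4, an inhibitor of lipoprotein lipase, was at 63.8 and 90.0 FPKM against 92.7 and 154.8 FPKM. The angiopoietin genes Angpt1 and Angpt2 did not reach the filter.

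In the BMP pathway list of 19 tested genes, 5 were above and 6 below in both UAB126 libraries, near the 22.7% and 26.9% of all symbols, with a median of 0.06, and 0 passed (limma, adjusted p under 0.05). Hamp, for hepcidin, was at 1783 and 5388 FPKM without UAB126, against 817.2 and 1294 FPKM with it, and Id2, an inhibitor of DNA binding, at 265.3 and 184.4 FPKM against 76.3 and 78.5 FPKM (-1.503 ± 0.26, limma adjusted p = 0.163). Tfr2, for a sensor of iron-loaded transferrin, was at 182.0 and 199.8 FPKM against 130.1 and 138.1 FPKM. Smad9 was at 1.81 and 1.87 FPKM against 4.10 and 5.59 FPKM. Gdf2, for BMP9, the ligand that endoglin binds, was at 5.80 and 7.33 FPKM against 10.04 and 9.04 FPKM. Acvrl1, for ALK1, the endothelial receptor of BMP9, had a summed difference of -1.66 ± 0.26 (limma adjusted p = 0.137). Most of this lay in a row of the opposite strand, at 10.3 and 4.79 FPKM without UAB126, against 0.645 and 1.84 FPKM with it. The Acvrl1 row of its own strand was at 0.662 and 3.25 FPKM against 1.10 and 1.07 FPKM, a difference of -0.35 ± 0.46.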

How the data were processed

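The authors deposited 1 table of FPKM values with a column per library. The submitters' processing notes name Cufflinks 2.2.1, Cuffdiff, STAR 2.5.1b and Trim Galore 0.4.1, with mm10 as the build; neither annotation nor settings were known here. Per the labels' protocols, libraries were made from polyadenylated RNA with random primers and actinomycin D. FPKM hide the number of fragments. Relative depth, read from ratios of values under 0.3 FPKM, was 0.691, 0.404, 1 and 0.703 in vehicle replicates 1 and 2 and UAB126 replicates 1 and 2, and the absolute depth is unknown.

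Of 27216 rows, 3634 without a symbol were left out. Rows sharing a symbol were summed, which gave 22849 symbols, and 10786 with a mean of at least 1 FPKM were fitted as log2(FPKM + 1) with limma 3.58.1 in R 4.3.3 (intensity trend, group as the only term, two-sided, Benjamini-Hochberg adjustment). The pseudocount understates changes of low genes, and with 2 libraries a group no exact permutation test could pass 0.05. The fit was tested on simulated data with the same spread for all genes. The planted changes were larger than those of the 33 genes, so that test does not cover differences as small as theirs. Positions, strand and transcript lengths came from GENCODE M21 (GRCm38), whose positions overlapped the deposited locus for all 33 genes; promoters came from RefSeq.

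Every gene of the group is named. From pathway lists, genes with an unadjusted p under 0.05 and the 2 highest means were named; from marker lists, the 2 highest means and genes at 0. Gdf2, Wnt2, Rspo3, Angpt1, Angpt2, Ppbp and Lep were chosen after their values were seen. One gene that the rule names is not reported here. The group and lists were chosen with earlier results of these data known. The reading of strand from the order of rows, and the alternative without 369 rows of the opposite strand, were added after seeing the data.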

Additional observations from a re-analysis of the deposited data

How the results depend on the processing

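With 2 libraries a group, 1 library moved most values. Leaving out each library in turn gave 0 to 442 symbols past the threshold (15 with all; 442 without vehicle replicate 1) and 0 to 3 of the 33 genes. The 3 were Flt4, Erg and Nrp1, at 2.17, 1.40 and -2.05, where the lone vehicle library is assumed to vary like the others. The value of Nrp1 rests wholly, and that of Flt4 in part, on rows of the opposite strand. With rows of the opposite strand left out, 32 genes had a median of 0.46 in all libraries, beside -0.02 over all symbols. The median of the 33 genes ran from 0.21 (without vehicle replicate 1) to 0.59 (without vehicle replicate 2). The genes with UAB126 above vehicle ran from 18 to 28. With a library left out fewer values must be in order, so this count cannot fall below the 17 of all libraries. The symbols past the threshold were 27 with a pseudocount of 0.1, 0 with no filter on low values, 24 after quantile normalization and 23 after centring on library medians. With a replicate block they were 148, with 0 of the 33 genes; the numbers only name libraries, so this pairing has no basis in the labels. Of the 33 genes, 20 kept their direction in all settings. The rest turned, with these ranges when 1 library was left out: Clec4g -0.0331 to 0.72, Pecam1 -0.11 to 0.93, Tek -0.0771 to 0.70, Flt1 -0.41 to 0.26, Egfl7 -0.94 to 0.10, Esam -0.0316 to 0.63, Cd34 -0.79 to 0.17, Vwf -0.15 to 0.49, Oit3 -0.30 to 0.27, Bmp6 -0.19 to 0.45, Nrp2 -0.23 to 0.0637, Emcn -0.28 to 0.33 and Icam2 -0.36 to 0.58. Oit3 also turned after quantile normalization (0.0804), centring (0.00862), removal of the length trend (0.0382) and on rows of its own strand (0.72), and Emcn after quantile normalization (-0.0162). The cause was not tested. Depth is known only relative to UAB126 replicate 1, so the counting error of low genes such as Erg and Vwf is unknown.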

Other observations

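Notch and Wnt signals that liver endothelium sends or receives overlapped between the groups in most genes. Of 9 tested, 2 were above and 1 below in both UAB126 libraries, against 22.7% and 26.9% of all symbols. None passed (limma, adjusted p under 0.05), with 0 higher and 1 lower at an unadjusted p under 0.05, against 5.03% and 8.38% of all symbols. Wnt2, an endothelial Wnt of the central vein region, was at 1.63 and 1.77 FPKM without UAB126, against 2.45 and 2.42 FPKM with it, and Rspo3, which strengthens Wnt signals, at 2.30 and 2.90 FPKM against 4.56 and 3.26 FPKM. The Notch ligand gene Jag1 was at 7.77 and 11.7 FPKM against 4.97 and 5.51 FPKM (-0.76 ± 0.23, limma adjusted p = 0.306). The Notch target Hes1 was at 12.2 and 6.56 FPKM against 11.2 and 15.2 FPKM.

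Markers of blood and other cells differed between single libraries. The neutrophil and monocyte list summed to 1.39 and 35.03 FPKM without UAB126, against 5.50 and 4.58 FPKM with it. S100a8 stood at 0 in vehicle replicate 1 and 24.7 FPKM in vehicle replicate 2, S100a9 at 0.209 and 6.81 FPKM, and Cxcr2, Mmp8 and Retnlg were each at 0 in 2 libraries. The T and NK cell list, led by Cd3g and Nkg7, summed to 2.55 and 6.24 FPKM against 4.09 and 8.03 FPKM, with Ncr1 at 0 in 3 libraries and Nkg7 in 1. In the B cell list, led by Cd79b, Pax5 and Blk were at 0 in vehicle replicate 2. The dendritic cell list, led by Zbtb46 and Clec9a, summed to 3.37 and 2.68 FPKM against 4.54 and 4.53 FPKM, with Flt3, Cd209a and Siglech at 0 in vehicle replicate 2. Pax5, Blk, Flt3, Cd209a and Siglech were under 1 FPKM in every library. Vehicle replicate 2 was the shallowest library, at a relative depth of 0.404 of UAB126 replicate 1. The part of depth in these zeros was not tested.

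The red cell and platelet list, led by Alas2 and Pf4, summed to 167.7 and 193.7 FPKM against 62.4 and 75.7 FPKM, with Slc4a1 at 0 in 1 library and Gp9 in 2. Most of this sum was Alas2 (163.9 and 189.1 FPKM against 59.8 and 70.8 FPKM), and Slc4a1, Ppbp and Gp9 had higher means with UAB126. The adipocyte and mesothelium list, led by Cfd and Adipoq, summed to 220.4 and 56.0 FPKM against 7.07 and 28.0 FPKM. The difference lay in Cfd (213.2 and 51.2 FPKM against 2.54 and 19.6 FPKM), while Adipoq had a ratio of mean FPKM of 1.22 and Lep of 1.19. The cholangiocyte list, led by Spp1 and Krt19, summed to 72.0 and 57.8 FPKM against 55.8 and 55.7 FPKM, with Cftr at 0 in UAB126 replicate 2. The lists described with the endothelial results were led by C1qb and C1qa (Kupffer cells), Ttr and Apoa1 (hepatocytes) and Dcn and Col1a1 (stellate cells). The part of these values in the endothelial differences was not tested.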
